A study of Mus musculus with 12 samples.

Results

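The genes described here are known from naive and memory T cells: Tcf7, Lef1, Klf2, Klf3, Bach2, Satb1, Id3, Ly6c1, Slamf6 and Actn1. They were chosen by symbol. A row of the expression table stood for a gene when the array's probe table gave it exactly 1 symbol, and where several rows did, the row with the highest mean over the 12 arrays was used. On this rule 9 of the 10 genes were found, among 22180 genes in all. Tcf7, which encodes the transcription factor TCF-1, had no such row and was not analysed here.

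RNA of sorted mouse T cells had been hybridised to 12 Affymetrix arrays, 3 in each of 4 groups. The groups were nTregs with azacitidine (AzaC), nTregs with PBS, CD4 effector T cells with AzaC and CD4 effector T cells with PBS. The nTregs (natural regulatory T cells) were purified from B6.Foxp3GFP spleens. The effector cells, called CD4 cells below, came from Treg-depleted T cells of a B6.Foxp3GFP x B6.CAGDSRED cross, in which the CAG promoter drives the red fluorescent protein DsRed. The strain label gives this cross for all 12 samples, so for nTregs the strain label and the protocol differ. All 4 groups shared the same start: nTregs and effector cells grew together at 1 part to 10, with beads against CD3 and CD28 and 500 U/mL interleukin-2, for 2 days. AzaC (1 µM) or PBS was then present for 2 more days, so the drug acted on the mixed culture before the sort. The nTregs were sorted as CD4+ DsRed- Foxp3GFP+ cells and the CD4 cells as CD4+ DsRed+ Foxp3GFP- cells. Ages are not stated, and the labels do not say whether replicates came from separate animals or cultures, so the p-values below cover the spread among these arrays, part of which may be technical.

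Naive T cells are kept quiescent and circulating by a small set of transcription factors, and many of these genes are turned down once the cell is activated and divides. Central memory cells keep or regain part of that program. Regulatory T cells use several of the same factors to hold their own identity. AzaC takes the place of cytidine in newly made DNA and RNA and traps DNA methyltransferases, which copy methyl groups onto CpG dinucleotides after replication.

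Foxp3, the lineage factor that the sort selected for through its reporter, averaged 12.69 ± 0.02 in nTregs with AzaC and 12.34 ± 0.31 in nTregs with PBS. It averaged 9.62 ± 0.23 in CD4 cells with AzaC and 8.05 ± 0.24 in CD4 cells with PBS (log2 signal, SD, n = 3 each). All 7 of the regulatory T cell markers looked at were higher in nTregs than in CD4 cells under both treatments in limma. Array medians lay between 6.67 and 6.80, and each of the 9 genes lay above its array's median on every array, with a lowest value of 7.55. The array of nTreg PBS replicate 1 stood apart. It correlated with the remaining arrays at a mean r of 0.961, the next lowest array at 0.970, and it was the lowest of its group for 7 of the 9 genes and the highest for the other 2, Id3 and Slamf6.

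**Figure D1:**
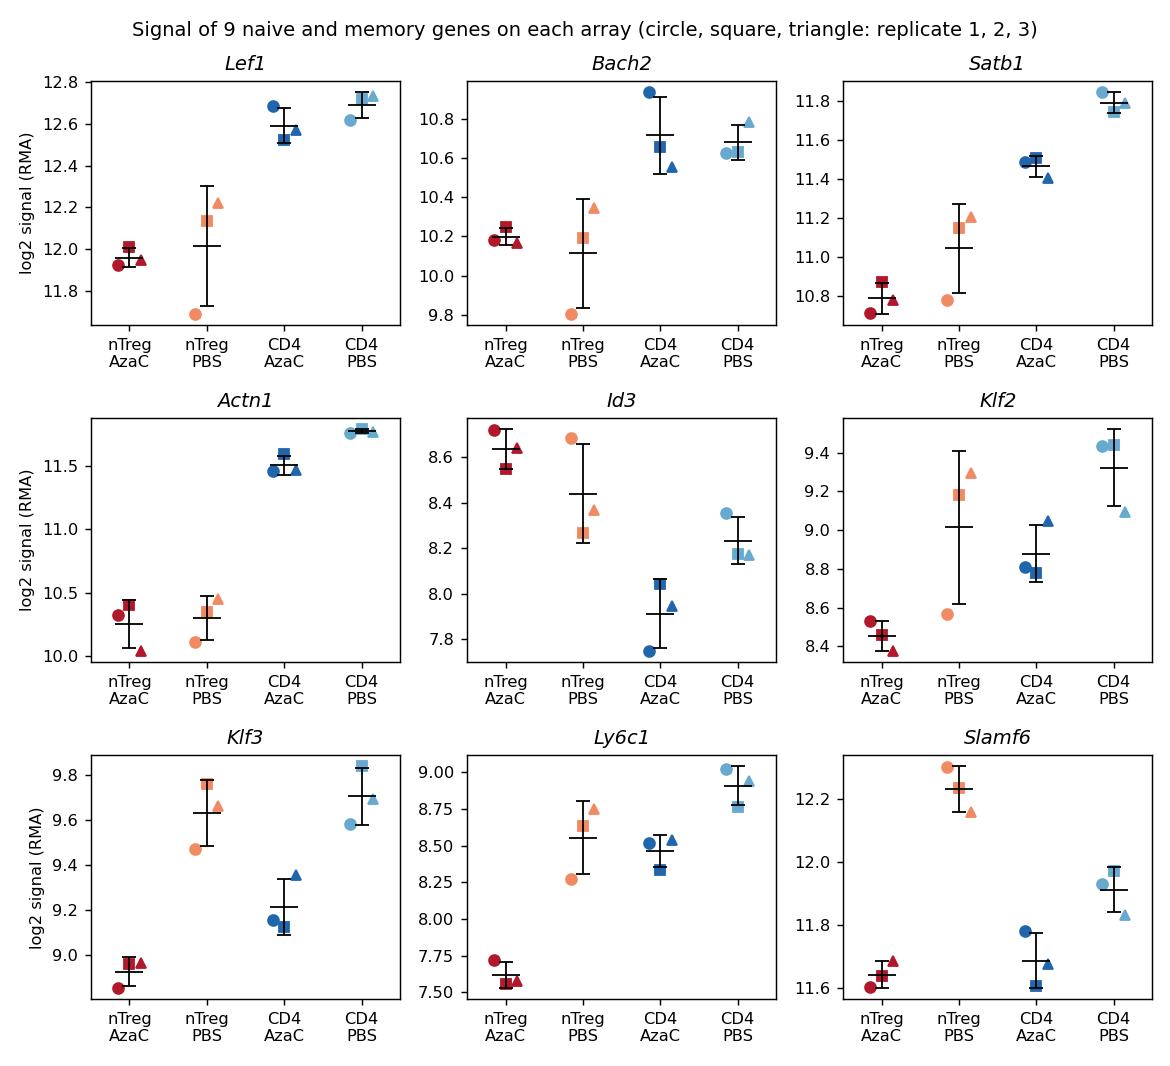
Log2 signal (vertical axis) of the 9 genes on each array, by group (horizontal axis). Points are arrays, with circle, square and triangle for replicates 1, 2 and 3, and the black mark and bar are the group mean and SD. In Lef1, Bach2, Satb1 and Actn1 the nTreg arrays lie below the CD4 arrays. In Klf3, Ly6c1, Slamf6 and, by a narrow margin, Klf2 the AzaC arrays lie below the PBS arrays of the same population.

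The first comparison asks whether AzaC changed these genes in nTregs. Ly6c1 fell to 0.523 of its PBS level, Klf3 to 0.614 and Slamf6 to 0.666, and none of the 9 genes rose. A gene is said to have risen or fallen where limma's Benjamini-Hochberg adjusted p over all 22180 genes was under 0.05. In this comparison 2.02% of all genes passed, 1.42% as higher and 0.6% as lower. Because the samples are bulk RNA, fewer cells of a type and less RNA per cell cannot be told apart.

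Ly6c1 encodes a form of Ly6C, a lipid-anchored surface protein that marks subsets of effector and memory T cells in the mouse. The row of Ly6c2, a gene nearly identical in sequence, was brighter and differed the other way. It averaged 12.21 in nTregs with AzaC and 11.64 with PBS (difference 0.57, adjusted p = 0.0729 in limma). How far the probes share signal is not known, so the Ly6c1 values do not show a fall of Ly6C as a whole. The log2 signal of Ly6c1 was 7.72, 7.55 and 7.58 in the 3 nTreg samples with AzaC, against 8.27, 8.64 and 8.75 in those with PBS. All AzaC values lay below all PBS values, and the log2 difference was -0.94 (SE 0.13, adjusted p = 0.00180 in limma).

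Klf3 encodes a zinc finger repressor of the Krüppel-like family, which recruits CtBP corepressors. It gave 8.85, 8.96 and 8.96 in nTregs with AzaC, against 9.47, 9.76 and 9.66 in nTregs with PBS. The groups did not overlap, and the difference was -0.70 (SE 0.11, adjusted p = 0.00427 in limma).

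Slamf6, also called Ly108, is a receptor of the SLAM family that binds itself on neighbouring cells and is carried by memory-like T cells. Its row gave 11.61, 11.64 and 11.69 in nTregs with AzaC, against 12.30, 12.23 and 12.16 in nTregs with PBS. Again no value overlapped, and the difference was -0.59 (SE 0.09, adjusted p = 0.00453 in limma). A dimmer Slamf6 row read 8.16, 8.30 and 8.35 in nTregs with AzaC, against 10.09, 9.40 and 9.39 in nTregs with PBS. Its difference was -1.36 (SE 0.17, adjusted p = 0.00103 in limma fitted to every row), so both rows pointed the same way and differed in size.

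Klf2 is a zinc finger factor of quiescent T cells, known for activating genes of T cell trafficking. It read 8.53, 8.46 and 8.38 in nTregs with AzaC, against 8.57, 9.18 and 9.30 in nTregs with PBS. The groups did not overlap, but the PBS replicate 1 array lay just above the AzaC arrays, and the difference of -0.56 (95% interval -0.92 to -0.20, adjusted p = 0.113) did not pass. Without that array the difference was -0.78 (adjusted p = 0.00569). The 4 genes without overlap, all lower, were Ly6c1, Klf3, Slamf6 and Klf2, and 13.5% of all genes were lower without overlap.

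The other 5 genes did not pass in nTregs. Satb1, a chromatin organiser needed in thymic T cell development, differed by -0.26 (95% interval -0.50 to -0.01). Lef1, an HMG-box factor that works beside TCF-1, differed by -0.06 (-0.33 to 0.22). Actn1, which encodes the actin cross-linker alpha-actinin-1, differed by -0.05 (-0.30 to 0.20), and Bach2, a repressor that restrains effector differentiation, by 0.09 (-0.21 to 0.38). Id3, an inhibitor of E protein transcription factors, differed by 0.20 (-0.07 to 0.46). The median over the 9 genes was -0.26, beside -0.04 over all genes.

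Markers of CD8 T cells moved in the same comparison. Cd8a was higher by 1.39 and Cd8b1 by 0.72 in nTregs with AzaC, which makes 2 of 2 markers, and their summed signal on the log2 scale was 11.24 to 11.37 with AzaC and 10.35 to 10.69 with PBS. Nkg7, 1 of 4 natural killer cell markers, was higher by 0.57, and Itgam, 1 of 6 myeloid markers, was lower by 0.94. The Cd8b1 call was kept in 17 of 21 settings (adjusted p up to 0.0974), the Nkg7 call in 9 (up to 0.177) and the Itgam call in 12 (up to 0.141). The summed signal of the natural killer markers was 11.72 to 12.02 with AzaC and 11.20 to 11.63 with PBS. Nkg7 made up most of this sum, with means of 11.81 and 11.25, while those of Ncr1, Klrb1c and Klre1 were 5.50 to 6.68. Ncr1 (-0.12) and Klrb1c (-0.50) were lower with AzaC and Klre1 (0.40) was higher, and none of them passed. The summed signal of the myeloid markers was 8.54 to 8.83 with AzaC and 9.07 to 9.17 with PBS. Of the regulatory T cell markers 1 of 7, Ikzf4, was higher by 0.76 (kept in 17 of 21 settings), with summed signals of 14.87 to 14.88 with AzaC and 14.48 to 14.71 with PBS. None of the 4 B cell markers passed. The part of these markers in the falls of Ly6c1, Klf3 and Slamf6 was not tested.

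The promoters of the 3 genes that fell are shown because AzaC acts on the enzymes that methylate CpG dinucleotides and because these promoters differ in how many they hold. Methylation was not measured here. Each line gives the 250 bases before the gene's start from RefSeq on GRCm38.p6, in the gene's own direction and 5′ to 3′, with each CpG in capitals. The Klf3 stretch is chr5:64803271-64803520 on the plus strand, the Ly6c1 stretch chr15:75048838-75049087 on the minus strand, and the Slamf6 stretch chr1:171917212-171917461 on the plus strand.
Klf3: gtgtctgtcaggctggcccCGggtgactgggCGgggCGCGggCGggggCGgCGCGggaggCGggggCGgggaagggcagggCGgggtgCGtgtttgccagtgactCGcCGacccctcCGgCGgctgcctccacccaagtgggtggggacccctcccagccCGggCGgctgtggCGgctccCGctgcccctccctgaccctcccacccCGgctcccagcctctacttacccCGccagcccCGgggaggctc
Ly6c1: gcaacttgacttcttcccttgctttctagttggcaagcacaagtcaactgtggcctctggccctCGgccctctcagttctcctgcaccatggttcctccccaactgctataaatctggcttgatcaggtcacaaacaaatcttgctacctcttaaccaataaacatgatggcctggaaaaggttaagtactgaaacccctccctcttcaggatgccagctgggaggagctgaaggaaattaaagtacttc
Slamf6: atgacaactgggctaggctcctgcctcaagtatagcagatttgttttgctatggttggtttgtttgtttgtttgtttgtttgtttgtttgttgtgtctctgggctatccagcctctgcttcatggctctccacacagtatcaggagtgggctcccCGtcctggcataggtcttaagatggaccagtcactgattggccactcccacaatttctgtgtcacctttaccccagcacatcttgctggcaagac

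The Klf3 stretch holds 23 CpG dinucleotides, while the Ly6c1 stretch and the Slamf6 stretch hold 1 each. Over the full window of 250 bases before and 50 after the start, the ratio of observed to expected CpG was 0.659 for Klf3, 0.0575 for Ly6c1 and 0.0571 for Slamf6, beside a median of 0.384 over 32851 listed promoters. Only 7.07% of promoters had a lower ratio than Ly6c1 and 6.98% a lower ratio than Slamf6, while 68.0% had a lower ratio than Klf3. Among the other 6 genes the ratio ran from 0.307 in Satb1 to 0.889 in Klf2. Klf2 (0.889), Lef1 (0.530), Id3 (0.704) and Actn1 (0.690), which did not pass with AzaC, lay on the same side of the median as Klf3. The part of promoter CpG content in the AzaC differences was not tested. The only start listed for Bach2 lies 179022 bases inside the gene, so its window (0.376) may not be the one these cells use.

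**Figure D2:**
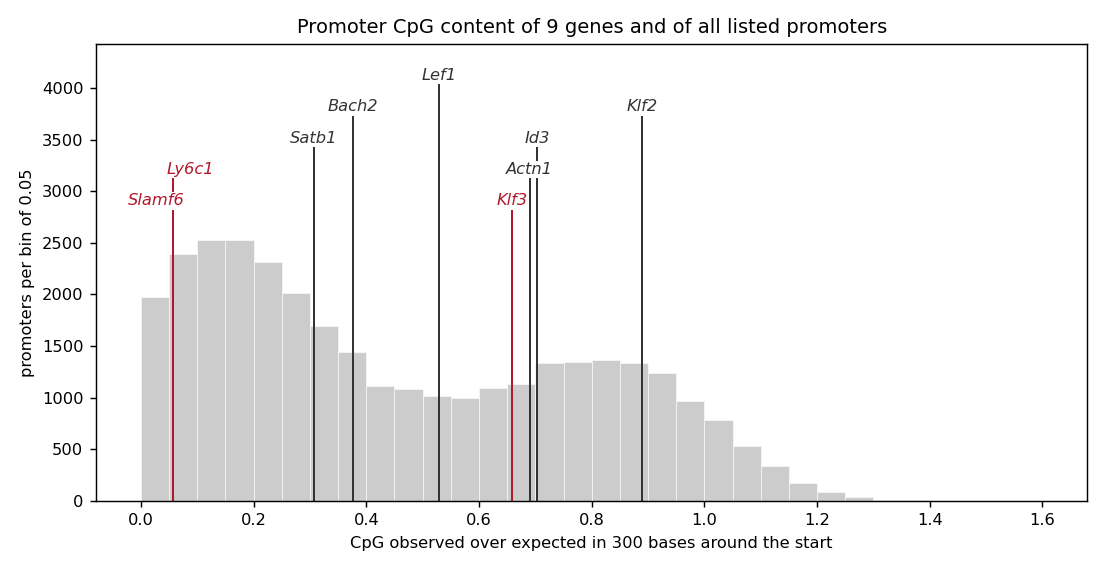
Ratio of observed to expected CpG (horizontal axis) in the 300 bases around the start, as the number of listed RefSeq promoters per bin of 0.05 (grey bars, vertical axis), with a line at the value of each of the 9 genes. The 3 genes that fell in nTregs with AzaC are in red: Ly6c1 and Slamf6 lie together at the low end (0.0575 and 0.0571) and Klf3 at 0.659.

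The 9 windows were also searched on both strands for letters that factors among these genes are known to bind. CACCC, the core read by Krüppel-like factors, was found 5 times in Klf3, 3 times in Lef1, 2 times each in Satb1 and Id3 and 1 time in Klf2, and 57.5% of all listed promoters hold it. CTTTGA, the core read by LEF and TCF factors, was found only in Bach2, and 16.0% of promoters hold it. TGANTCA, the centre of the site read by Bach2 and AP-1, was found in none of the 9, and 7.81% of promoters hold it. The end of CTTTGA can overlap the start of TGANTCA, and a match is no more than a run of letters.

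The second comparison asks the same of CD4 cells. Klf3 fell to 0.711 of its PBS level and no other gene of the 9 passed, where 1.76% of all genes passed, 0.83% as higher and 0.933% as lower. The differences nevertheless leaned one way: for 7 of the 9 genes every AzaC value lay below every PBS value, while 12.2% of all genes were lower without overlap. The median over the 9 genes was -0.32, beside 0.01 over all genes.

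Klf3 gave 9.15, 9.12 and 9.35 in CD4 cells with AzaC, against 9.58, 9.84 and 9.69 in CD4 cells with PBS. The difference was -0.49 (SE 0.11, adjusted p = 0.0404 in limma). The call is close to the threshold: it was kept when nTreg PBS replicate 1 or nTreg PBS replicate 2 was left out and lost when any other single array was left out, with adjusted p up to 0.152 and differences of -0.56 to -0.43.

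Klf2 gave 8.81, 8.78 and 9.05 in CD4 cells with AzaC, against 9.44, 9.44 and 9.09 in CD4 cells with PBS. Ly6c1 gave 8.52, 8.34 and 8.54 in CD4 cells with AzaC, against 9.02, 8.77 and 8.94 in CD4 cells with PBS. In both genes all AzaC values were the lower ones, and in Klf2 the closest pair of arrays was 9.05 with AzaC and 9.09 with PBS. The differences were -0.44 for Klf2 (adjusted p = 0.229) and -0.45 for Ly6c1 (adjusted p = 0.111).

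Satb1 gave 11.48, 11.51 and 11.40 in CD4 cells with AzaC, against 11.84, 11.74 and 11.79 in CD4 cells with PBS, a difference of -0.33 (adjusted p = 0.195). Id3 gave 7.75, 8.04 and 7.94 with AzaC, against 8.35, 8.17 and 8.17 with PBS, a difference of -0.32 (adjusted p = 0.240). Neither gene's groups overlapped, and the same held for Actn1 (-0.27, adjusted p = 0.299) and Slamf6 (-0.22, adjusted p = 0.277). The dimmer Slamf6 row differed by -0.68 (adjusted p = 0.0641). Lef1 (-0.10, 95% interval -0.37 to 0.18) and Bach2 (0.04, -0.26 to 0.33) overlapped between the treatments.

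The spread in this fit is shared by all 12 arrays, and nTreg PBS replicate 1 weighed on it. Without that array 4 of the 9 genes passed as lower in CD4 cells: Klf3, Ly6c1 (adjusted p = 0.0235), Klf2 (0.0426) and Satb1 (0.0471), with the same differences, since the CD4 arrays are untouched. Over all genes 3.05% then passed as lower, against 0.933% with all 12 arrays. The summed T cell markers were 14.74 to 14.82 in CD4 cells with AzaC and 14.99 to 15.04 in CD4 cells with PBS, though none of the 5 markers passed, and Nkg7, 1 of 4 natural killer markers, was higher by 0.75. The summed signal of these 4 was 11.92 to 12.11 in CD4 cells with AzaC and 11.23 to 11.41 in CD4 cells with PBS. Nkg7 made up most of this sum as well. Of the regulatory T cell markers 3 of 7 were higher in CD4 cells with AzaC, Foxp3 by 1.57, Ikzf4 by 0.98 and Il2ra by 0.59. Nrp1 (0.29), Ikzf2 (0.06), Tnfrsf18 (0.06) and Ctla4 (-0.16) did not pass, and Ctla4 was lower without overlap. The summed signal of the 7 was 13.85 to 13.93 in CD4 cells with AzaC and 13.46 to 13.47 in CD4 cells with PBS. Il2ra was the brightest of the 7, with means of 13.11 and 12.52. The part of these levels in the CD4 values was not tested.

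**Figure D3:**
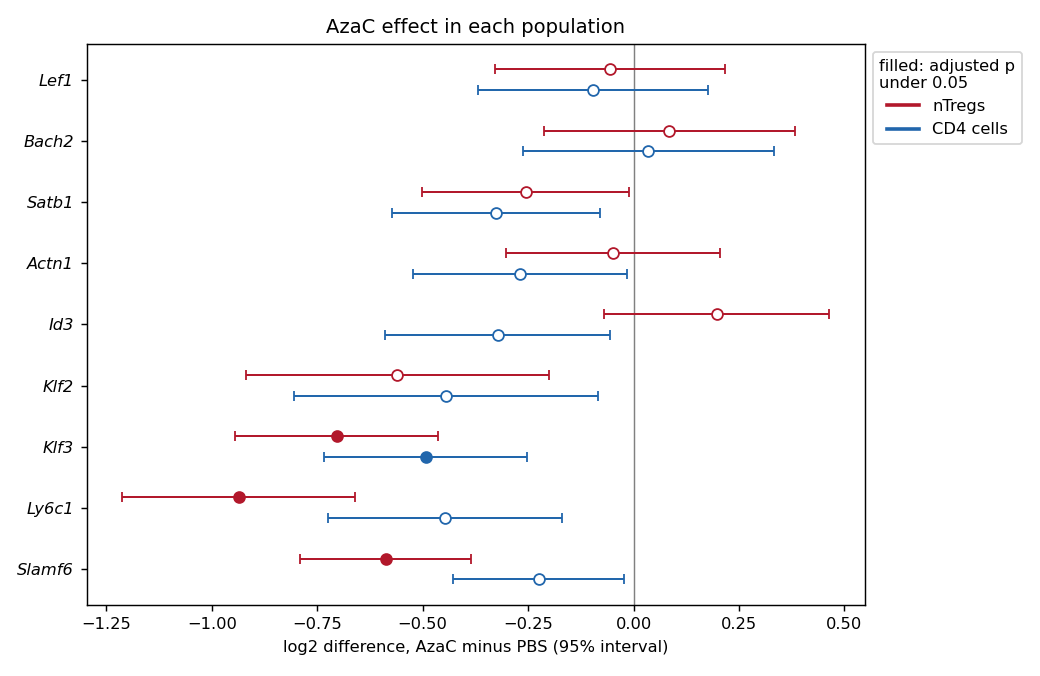
Log2 difference of AzaC minus PBS (horizontal axis) for each of the 9 genes in nTregs (red) and in CD4 cells (blue), with 95% intervals from limma. Filled points have an adjusted p under 0.05: Ly6c1, Klf3 and Slamf6 in nTregs and Klf3 in CD4 cells.

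The third comparison asks whether the AzaC effects differed between the populations. By limma's interaction term 0 of the 9 genes passed, where 0.203% of all genes passed. At an unadjusted p under 0.05 stood 3 of the 9 genes, beside 17.5% of all genes. These were Id3, whose AzaC effect in nTregs minus that in CD4 cells was 0.52 (95% interval 0.14 to 0.90, adjusted p = 0.207), Ly6c1 (-0.49, -0.88 to -0.10, adjusted p = 0.225) and Slamf6 (-0.36, -0.65 to -0.08, adjusted p = 0.223). The falls of Ly6c1 and Slamf6 in nTregs are therefore not shown to be larger than in CD4 cells. With arrays weighted by their own spread, Id3 (0.63, adjusted p = 0.0316) and Ly6c1 (-0.63, adjusted p = 0.0376) passed, and the share of all genes that passed was then 1.81%.

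The fourth comparison sets nTregs against CD4 cells under PBS. By the protocol the populations also differed in mouse line and in purification before culture. In either population comparison these cannot be told apart from cell type. Actn1, Satb1, Lef1 and Bach2 were lower in nTregs, by 1.48 to 2.78 times, and none of the 9 was higher. In this comparison 8.01% of all genes passed, 3.9% as higher and 4.12% as lower. The median over the 9 genes was -0.36, beside 0.03 over all genes. For 5 of the 9 genes all nTreg values lay below all CD4 values, and for 1, Slamf6, all lay above, while 13.2% of all genes were lower and 13.5% higher without overlap.

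Actn1 showed the largest difference of the 9 genes. It gave 10.11, 10.34 and 10.45 in nTregs with PBS, against 11.77, 11.79 and 11.77 in CD4 cells with PBS. The 3 CD4 arrays were nearly equal, and the difference of -1.48 (SE 0.12, adjusted p = 2.50e-06 in limma) was many times the spread within either group.

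Satb1 gave 10.78, 11.15 and 11.20 in nTregs with PBS, against 11.84, 11.74 and 11.79 in CD4 cells with PBS (difference -0.74, SE 0.11, adjusted p = 0.00104 in limma). Lef1 gave 11.69, 12.14 and 12.22 in nTregs, against 12.62, 12.72 and 12.73 in CD4 cells (-0.67, SE 0.13, adjusted p = 0.00475). In both genes nTreg PBS replicate 1 was the lowest array, and the other 2 nTreg arrays also lay below every CD4 array. Fitted to the 2 PBS groups alone, Lef1 did not pass (adjusted p = 0.0608).

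Bach2 gave 9.80, 10.19 and 10.35 in nTregs with PBS, against 10.63, 10.63 and 10.78 in CD4 cells with PBS. The groups did not overlap and the difference was -0.57 (SE 0.14, adjusted p = 0.0220 in limma). Without nTreg PBS replicate 1 the difference was -0.41 (adjusted p = 0.0564), and the call was also lost without CD4 PBS replicate 1, 2 or 3 (adjusted p = 0.0501, 0.0536 and 0.0841), after repeated quantile normalization (0.0514) and in a fit of the PBS groups alone (0.102).

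Slamf6 lay the other way, with 12.30, 12.23 and 12.16 in nTregs with PBS, against 11.93, 11.97 and 11.83 in CD4 cells with PBS. No value overlapped in this row, and the difference of 0.32 (95% interval 0.12 to 0.52, adjusted p = 0.0538) stood just outside the threshold. In the dimmer Slamf6 row the groups overlapped, with a difference of 0.25 (adjusted p = 0.415 in limma fitted to every row). Ly6c1 was lower in nTregs without overlap, at -0.36 (adjusted p = 0.113). Klf2 (-0.31, 95% interval -0.67 to 0.05), Klf3 (-0.08, -0.32 to 0.17) and Id3 (0.21, -0.06 to 0.47) overlapped between the populations.

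Among T cell markers, Cd4 (-0.83) and Cd3e (-0.77) were lower in nTregs under PBS, 2 of 5, and the summed signal of the 5 was 14.61 to 14.74 in nTregs and 14.99 to 15.04 in CD4 cells. The Cd4 call was kept in 20 of 21 settings (adjusted p up to 0.0628 in limma) and the Cd3e call in 19 (up to 0.107). Of the B cell markers, Cd79b was higher in nTregs by 0.80, 1 of 4, with summed signals of 8.89 to 9.06 in nTregs and 8.45 to 8.69 in CD4 cells. Cd79b was the brightest of the 4, with means of 8.12 and 7.32. The other 3 did not pass, and Cd79a was slightly lower in nTregs. The part of these markers in the values of Actn1, Satb1, Lef1 and Bach2 was not tested.

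The fifth comparison sets nTregs against CD4 cells with AzaC. The same 4 genes were lower in nTregs, Ly6c1 was lower as well, and Id3 was higher. Of all genes 6.75% passed, 2.19% as lower and 4.57% as higher. The median over the 9 genes was -0.52, beside -0.04 over all genes, and 7 of the 9 were lower and 1 higher without overlap, where 17.2% of all genes were lower and 15.1% higher.

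Actn1 gave 10.32, 10.40 and 10.04 in nTregs with AzaC, against 11.46, 11.60 and 11.47 in CD4 cells with AzaC (difference -1.26, SE 0.12, adjusted p = 1.45e-05 in limma). Satb1 differed by -0.67 (adjusted p = 0.00213) and Lef1 by -0.63 (adjusted p = 0.00686), close to their differences under PBS. Bach2 gave 10.18, 10.25 and 10.17 in nTregs with AzaC, against 10.94, 10.66 and 10.56 in CD4 cells with AzaC, a difference of -0.52 (SE 0.14, adjusted p = 0.0375). The Bach2 groups did not overlap, but the call was lost without 7 of the 12 arrays in turn: CD4 PBS replicates 1 and 2, CD4 AzaC replicates 1 and 2, and each nTreg AzaC array (adjusted p = 0.0519 to 0.179).

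Ly6c1 gave 7.72, 7.55 and 7.58 in nTregs with AzaC, against 8.52, 8.34 and 8.54 in CD4 cells with AzaC. The lowest CD4 value stood clear of the highest nTreg value, and the difference was -0.84 (SE 0.13, adjusted p = 0.000903 in limma). Id3 gave 8.72, 8.55 and 8.64 in nTregs with AzaC, against 7.75, 8.04 and 7.94 in CD4 cells with AzaC. Id3 was the only one of the 9 that lay higher in nTregs without overlap, by 0.73 (SE 0.12, adjusted p = 0.00228).

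The remaining genes did not pass with AzaC. Klf2 (-0.42, 95% interval -0.78 to -0.06, adjusted p = 0.165) and Klf3 (-0.29, -0.53 to -0.05, adjusted p = 0.160) were lower in nTregs without overlap. Slamf6 overlapped, with a difference of -0.04 (-0.25 to 0.16). Its dimmer row was lower in nTregs without overlap, by -0.44 (adjusted p = 0.160 in limma fitted to every row). Both CD8 T cell markers were higher in nTregs with AzaC, Cd8a by 1.36 and Cd8b1 by 1.27, with summed signals of 11.24 to 11.37 in nTregs and 9.74 to 10.31 in CD4 cells, and Cd79b, 1 of 4 B cell markers, was higher by 1.08. The summed B cell markers gave 8.74 to 9.06 in nTregs and 8.34 to 8.66 in CD4 cells. Cd79b was the brightest of the 4, with means of 7.91 and 6.82. Of the 4 markers 2 were higher in nTregs and 2 lower. The lower ones were Cd79a (means of 6.61 in nTregs and 6.69 in CD4 cells) and Pax5 (6.44 and 6.65), and neither passed. The part of these markers in the differences was not tested. Both population comparisons and both AzaC comparisons use the same 4 groups of arrays, so they are not independent of each other.

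**Figure D4:**
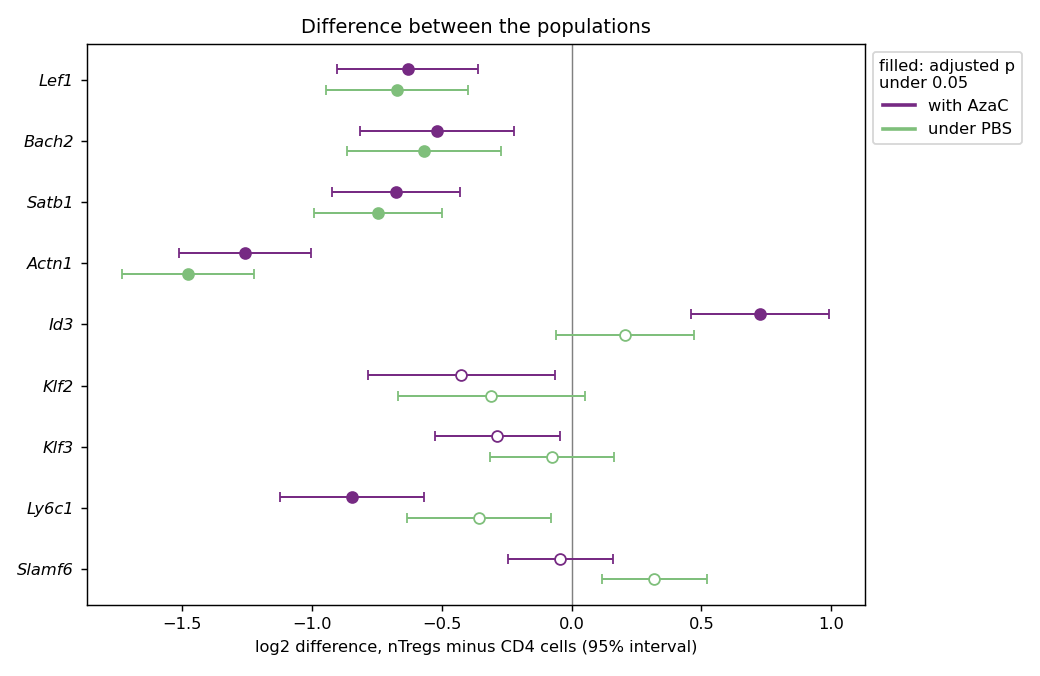
Log2 difference of nTregs minus CD4 cells (horizontal axis) for each of the 9 genes, with AzaC (purple) and under PBS (green), with 95% intervals from limma. Filled points have an adjusted p under 0.05. Actn1, Satb1, Lef1 and Bach2 lie below 0 under both treatments, and Ly6c1 and Id3 pass with AzaC alone, which is not a test that their values differ between the treatments.

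The variation of each gene over the 12 arrays was split into the part between populations, the part between treatments, their interaction and the part within groups. Population held most of it for Actn1 (95.6%), Lef1 (85.9%), Satb1 (79.7%), Bach2 (76.8%) and Id3 (62.4%). Treatment held most for Klf3 (81.3%) and Slamf6 (71.7%), and the largest share for Ly6c1 (49.6%, beside 37.3% for population) and Klf2 (47.0%, beside 25.0%). Klf2 and Bach2 had the largest parts within groups, 27.4% and 22.1%. The interaction took 19.4% in Id3 and 14.3% in Slamf6, and at most 6.20% in the other genes. These shares describe the 12 arrays and carry no test.

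**Figure D5:**
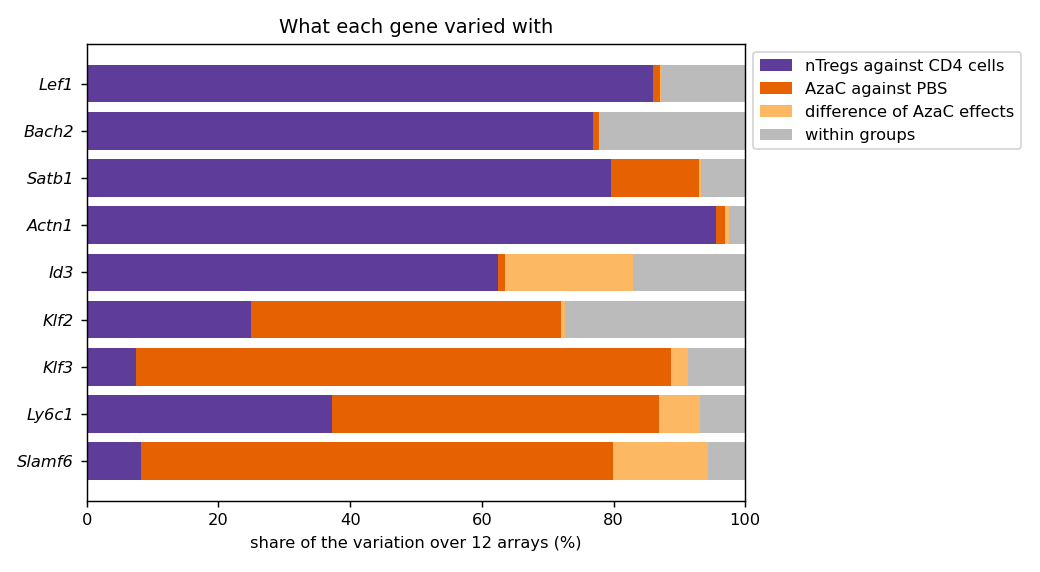
Share of the variation of each of the 9 genes over the 12 arrays (horizontal axis, percent) that lay between nTregs and CD4 cells (purple), between AzaC and PBS (orange), in the difference of the AzaC effects (light orange) and within groups (grey). Population takes 95.6% for Actn1, and AzaC takes 81.3% for Klf3.

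The order of the 4 group means was compared as well. Lef1, Satb1 and Actn1 were lowest in nTregs with AzaC, then nTregs with PBS, CD4 cells with AzaC and CD4 cells with PBS. The 2 nTreg groups overlapped in these 3 genes, and the 2 CD4 groups overlapped in Lef1. Bach2 had both nTreg groups below both CD4 groups, with overlap inside each population. Klf2, Klf3 and Ly6c1 were lowest in nTregs with AzaC, then CD4 cells with AzaC, nTregs with PBS and CD4 cells with PBS. Of their neighbouring groups, nTregs with PBS overlapped CD4 cells with AzaC in Klf2 and Ly6c1 and overlapped CD4 cells with PBS in Klf2 and Klf3. Slamf6 had both AzaC groups lowest, overlapping, followed by CD4 cells with PBS and then nTregs with PBS. The dimmer Slamf6 row had the same order, but there the AzaC groups did not overlap and the PBS groups did. Id3 was lowest in CD4 cells with AzaC, with the CD4 PBS arrays above them without overlap, and the nTreg PBS arrays overlapped the group on either side.

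Correlations over the 12 arrays are given as a description, and since the points fall into 4 groups they carry no p. Lef1 correlated with Bach2 and with Actn1 at r = 0.954 each, and with Satb1 at 0.948. Klf2 correlated with Ly6c1 at 0.908 and with Klf3 at 0.859. Satb1 also correlated with Ly6c1 (0.836) and Klf2 (0.785), while Slamf6 correlated with Klf3 at 0.744 and less with Ly6c1 (0.492) and Klf2 (0.437). Id3 ran against Bach2 (-0.842) and Lef1 (-0.838). Among all 22180 genes, the 3 most like Lef1 were Asap1 (0.986), Map4k4 (0.982) and Ablim1 (0.977), and the 3 most like Bach2 were Utrn (0.973), Foxp1 (0.971) and Yeats2 (0.969). For Ly6c1 they were Tmem71 (0.958), Dipk1a (0.947) and Gab3 (0.944), and for Slamf6 they were Macroh2a1 (0.936), Cldn10 (0.930) and Gm19497 (0.925).

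Other genes of the naive and quiescent state were counted next. Of 19 measured, 3 rose and 0 fell in nTregs with AzaC, at a median difference of 0.06. Of all genes 1.42% rose and 0.6% fell there. Myb, a transcription factor of memory and progenitor cells, rose by 1.14, although a dimmer Myb row differed by -0.01, and Il7r, the interleukin-7 receptor, rose by 0.59. Ccr7, a homing receptor for lymph nodes, rose by 0.41 (adjusted p = 0.0494) and passed in only 4 of 21 alternative settings. In CD4 cells with AzaC 1 of the 19 rose (Myb, 0.53) and 2 fell (Il7r, -0.61, and the costimulatory receptor Cd27, -0.63), at a median of -0.09. Of all genes 0.83% rose and 0.933% fell in CD4 cells. The Myb call in CD4 cells was kept in 16 of 21 settings, and its dimmer row differed by 0.29 (adjusted p = 0.306). The Cd27 call was kept in 19 of 21 (adjusted p up to 0.0581). The difference of the AzaC effects, nTregs minus CD4 cells, was positive for 17 of the 19, at a median of 0.25 beside -0.04 over all genes. Il7r alone passed (1.20), where 0.203% of all genes did. Between the populations under PBS, 17 of the 19 differences were negative, at a median of -0.56 beside 0.03 over all genes. Of the 19 genes 8 passed as lower in nTregs and 1 as higher, where 4.12% of all genes passed as lower and 3.9% as higher. Without overlap 15 of the 19 were lower and 1 was higher, beside 13.2% and 13.5% of all genes. Among those that passed as lower were Igfbp4 (-2.21), Dapl1 (-2.60), the kinase gene Txk (-1.18) and Ccr7 (-1.17). With AzaC 8 were lower, such as Igfbp4 (-1.82) and Txk (-1.15), and 3 were higher, such as the antiproliferative gene Tob1 (0.75), at a median of -0.26. Of all genes 2.19% were then lower and 4.57% higher.

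Genes known from effector T cells were counted in the same way. Of 18 measured, 3 rose and 0 fell in nTregs with AzaC: the T-box factor Eomes (0.96), the transcriptional regulator Bhlhe40 (1.15) and the inhibitory receptor Klrg1 (0.67), at a list median of 0.20. Of all genes 1.42% rose and 0.6% fell in nTregs. The Bhlhe40 call was kept in 17 of 21 settings (adjusted p up to 0.131) and the Klrg1 call in 16 (up to 0.0775). In CD4 cells 1 rose, the protease granzyme B gene Gzmb (0.77), and 1 fell, the transcription factor Nfil3 (-0.52, kept in 8 of 21 settings, adjusted p up to 0.164), at a median of 0.16. Over all genes 0.83% rose and 0.933% fell in CD4 cells. Under PBS 6 of the 18 were higher in nTregs than in CD4 cells and 3 lower, beside 3.9% and 4.12% of all genes. With AzaC 7 were higher and 1 was lower, led by the AP-1 family factor Batf (1.40), beside 4.57% and 2.19% of all genes.

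Paralogs and binding partners of the 9 genes were compared with them. Ly6c2 is nearly identical in sequence to Ly6c1, and how far their probes share signal is not known here, so both are uncertain. Its AzaC differences had the opposite sign to those of Ly6c1. It averaged 12.21 ± 0.10 in nTregs with AzaC and 11.64 ± 0.37 in nTregs with PBS (SD, n = 3 each; difference 0.57, adjusted p = 0.0729). In CD4 cells it averaged 13.16 ± 0.05 with AzaC and 12.52 ± 0.15 with PBS (0.65, adjusted p = 0.0495, passed in 8 of 21 alternative settings). Of the 19 relatives measured, none passed in nTregs with AzaC (4 had an unadjusted p under 0.05 in limma, beside 16.8% of all genes), and Slamf1, another SLAM receptor, also rose in CD4 cells (0.50, kept in 16 of 21 settings, adjusted p up to 0.0980). Relatives between the populations under PBS included Klf13 (-0.51), Tcf7l1 (0.48), Slamf1 (0.46) and Ly6c2 (-0.88), the 4 of 19 that passed, where 8.01% of all genes did. With AzaC Ly6c2 alone passed (-0.95), where 6.75% of all genes did.

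Sh2d1a encodes SAP, the adaptor through which Slamf6 signals. It gave 9.67 ± 0.09 in nTregs with AzaC and 10.40 ± 0.38 in nTregs with PBS (difference -0.73, SE 0.16, adjusted p = 0.0308 in limma). Sh2d1a was the only one of 13 binding partners that passed in nTregs with AzaC, where 2.02% of all genes did. The call was kept in 17 of 21 settings (adjusted p up to 0.162). In CD4 cells Sh2d1a gave 9.67 ± 0.10 with AzaC and 10.31 ± 0.14 with PBS (SD, n = 3 each), without overlap (difference -0.64, adjusted p = 0.0572), and the difference of the effects was -0.09 (adjusted p = 0.851). None of the 13 passed in CD4 cells with AzaC, where 2 had an unadjusted p under 0.05 in limma, beside 15.2% of all genes. Between the populations under PBS 3 of the 13 passed, where 8.01% of all genes did. The corepressor genes Tle4 (-0.66) and Tle5 (-0.70) and the E protein gene Tcf3 (-0.95) were lower in nTregs, and none was higher. The Tle5 call was kept in 19 of 21 settings (adjusted p up to 0.111) and the Tcf3 call in 17 (up to 0.151). With AzaC 2 of the 13 passed, as Tle4 was lower (-0.60) and Tle2 higher (0.64), where 6.75% of all genes passed.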

How the data were processed

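The deposited table holds log2 signals. Per the submitters' processing notes, the authors ran RMA in the program Affymetrix Expression Console, for which no version is given. RMA includes a quantile normalization, so a shift common to all genes would be removed. Of 41345 rows, 23521 carried exactly 1 symbol in the probe table, and 1082 genes with several rows were represented by the brightest. Limma 3.58.1 in R 4.3.3 fitted 1 mean per group to all 12 arrays, with 8 residual degrees of freedom, no filter on dim genes and no block, and adjusted over 22180 genes for each of 5 comparisons. The fit was tested on simulated data. The median SE was 0.13 for a difference and 0.18 for the interaction, and 3 arrays a group limit the precision. No 2 arrays were identical. Promoters came from RefSeq tables and matched all 9 genes, with the start nearest the gene's 5′ end where several were listed. The genes, the related lists and the markers were chosen with earlier results of these data known. All members were named, and of each other list at most 4 genes per comparison with the smallest p among those that passed. Alternatives were another scaling, filter, row choice, sample set, block, weights and moderation, each array left out in turn, and, chosen after seeing the data, the dimmest row. Tcf7 and some genes of the other lists are not reported here.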

Additional observations from a re-analysis of the deposited data

Results flagged for a closer look

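The AzaC effect on Il7r, the interleukin-7 receptor gene of naive and memory T cells, differed between the populations by limma's interaction term: 1.20 on the log2 scale, nTregs minus CD4 cells (SE 0.13, adjusted p = 0.00194), and it passed in 20 of 20 alternative settings. It averaged 11.14 ± 0.05 in nTregs with AzaC and 10.56 ± 0.09 in nTregs with PBS, and 10.61 ± 0.07 in CD4 cells with AzaC and 11.22 ± 0.03 in CD4 cells with PBS (SD, n = 3 each). Groups of 3 arrays are too small for a test of single outlying arrays.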

How the results depend on the processing

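The calls of Ly6c1, Klf3 and Slamf6 in nTregs with AzaC, of Actn1 and Satb1 between the populations under both treatments, and of Lef1, Ly6c1 and Id3 between the populations with AzaC kept their direction and passed in all 21 alternative settings. Of the 9 genes, the number that passed for AzaC in CD4 cells was 1 in the reported fit, 0 after repeated quantile normalization, 0 in a fit of only the 2 groups compared and 4 with array weights. Of all 22180 genes 391, 341, 396 and 1291 passed in the same fits. For AzaC in nTregs 3 of the 9 passed, and 5 with array weights, beside 448 and 1290 of all genes. For the difference of the AzaC effects 0 of the 9 passed, and 2 with array weights, beside 45 and 401 of all genes. Under PBS 4 of the 9 passed, and 2 in a fit of only the groups compared, beside 1777 and 648 of all genes. With each array left out in turn, the numbers of the 9 that passed ran from 3 to 4 for AzaC in nTregs, 0 to 4 for AzaC in CD4 cells, 0 to 0 for the difference of the effects, 3 to 4 under PBS and 5 to 7 with AzaC. Over all genes the same counts ran from 186 to 447, 164 to 1044, 9 to 69, 1042 to 1862 and 896 to 2467. Slamf6 under PBS passed with a filter on dim genes (adjusted p = 0.0362), repeated quantile normalization (0.0376), array weights (0.0418) and a variance trend (0.0401). These values are of its brighter row, and the dimmer row did not pass in limma fitted to every row (0.415).

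The differences that changed sign were small ones that had not passed, except that of Myb. With array medians subtracted, AzaC minus PBS in nTregs was 0.0046 for Lef1 and 0.012 for Actn1, that in CD4 cells was -0.033 for Bach2, the difference of the effects was 0.013 for Klf2, and nTregs minus CD4 cells with AzaC was 0.032 for Slamf6. After repeated quantile normalization, Bach2 was -0.011 for AzaC in nTregs, the difference of the effects was -0.021 for Lef1, -0.13 for Bach2 and -0.067 for Satb1, and Klf3 was 0.031 for nTregs minus CD4 cells under PBS. With array weights, Bach2 was -0.026 for AzaC in nTregs and -0.0039 in CD4 cells, and the difference of the effects was -0.080 for Lef1, -0.022 for Bach2 and -0.014 for Satb1. In its dimmest row, Myb was -0.0081 for AzaC in nTregs. With arrays left out in turn, AzaC in nTregs ran from -0.22 to 0.047 for Lef1, -0.070 to 0.20 for Bach2 and -0.14 to 0.059 for Actn1, and AzaC in CD4 cells from -0.075 to 0.11 for Bach2. The difference of the effects ran from -0.12 to 0.14 for Lef1, -0.34 to 0.026 for Klf2, -0.11 to 0.17 for Bach2 and -0.061 to 0.15 for Satb1. Klf3 under PBS ran from -0.14 to 0.0050, and Slamf6 with AzaC from -0.085 to 0.0024. The cause was not tested.

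Deviations of same-numbered arrays correlated at -0.10 to 0.19 over all genes. Between nTregs and CD4 cells these correlations were 0.02 to 0.04 under PBS and 0.03 to 0.09 with AzaC. Arrays of different numbers gave -0.04 to 0.01 under PBS and -0.05 to 0.02 with AzaC. With 3 arrays a group, correlations this small cannot show whether the numbers pair the samples. With the replicate number as a block, 3, 1, 0, 4 and 5 of the 9 genes passed in the 5 comparisons, and Bach2 with AzaC was lost (-0.52, adjusted p = 0.0572).

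Over all genes, 448 passed for AzaC in nTregs, 391 in CD4 cells, 45 for the difference of the effects, 1777 under PBS and 1498 with AzaC. Array weights gave 1290, 1291, 401, 2528 and 3500. A fit of only the groups compared gave 125 for AzaC in nTregs, 648 under PBS and 2350 with AzaC. For the difference of the effects, a filter on dim genes gave 78 and subtracting array medians 91. With an array left out the counts ran from 186 to 447, 164 to 1044, 9 to 69, 1042 to 1862 and 896 to 2467. The share of calls that were higher was 70.3%, 47.1%, 71.1%, 48.6% and 67.6%, with array medians subtracted 83.1%, 29.0%, 92.3%, 37.7% and 82.1%, after repeated quantile normalization 57.8%, 59.5%, 58.2%, 53.3% and 56.6%, and with array weights 59.5%, 38.7%, 60.1%, 50.8% and 57.3%. Subtracting array medians moved the median of all genes by 0.13 for the difference of the effects.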
